A study of Homo sapiens with 8 samples.

Results

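The genes described here are 39 genes of ribosome biogenesis and RNA polymerase I transcription, taken by symbol from a list of genes that work in this pathway. The list sets no threshold on any measured value, but it was chosen with earlier results of these data known. All 39 were found among the 20030 rows of the expression tables, and all 39 were among the 10677 genes that reached 1 FPKM in 2 or more libraries and were tested. RNA was sequenced from HCT-116 cells, an established human colorectal cancer line, transfected with short interfering RNAs, in 8 libraries. The groups were a non-targeting control siRNA (siNC, 2 libraries), siRNAs against *HHEX* (siHHEX, 3 libraries), siRNAs against *YAP1* together with *WWTR1*, the gene of TAZ (siYAP/TAZ, 2 libraries), and siRNAs against the 4 TEAD genes, *TEAD1* to *TEAD4* (siTEAD1/2/3/4, 1 library). The methods list 3 siRNAs against *HHEX* and 2 pairs against *YAP1* and *WWTR1*, numbered as the libraries are, so that replicates of a knockdown appear to differ in the siRNA as well, and 1 siRNA was directed at *TEAD1*, *TEAD3* and *TEAD4* together with another against *TEAD2*. The p-values measure the spread between these libraries, in which siRNA and culture cannot be told apart, and no source used here says that the 2 siNC libraries came from separate cultures. HHEX is a homeobox transcription factor, YAP and TAZ are the coactivators held in check by Hippo signalling, and TEAD1 to TEAD4 are the DNA-binding factors that YAP and TAZ act through. The values were FPKM, fragments scaled by transcript length and library total, so that levels can be compared between genes, and the sequencing depth behind them is unknown.

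Ribosomes are built in the nucleolus. RNA polymerase I transcribes the ribosomal DNA repeats into a long precursor, box C/D and box H/ACA snoRNPs methylate and pseudouridylate it, and assembly factors fold, cut and release the precursors of the small and the large subunit. The pathway is costly, is raised in most cancer cells and is a known target of the transcription factor MYC, which binds the E-box CACGTG. By role, the 39 genes were 8 of RNA polymerase I and its factors, 3 abundant nucleolar proteins, 4 box C/D snoRNP and early factors, 4 box H/ACA snoRNP proteins, 7 small subunit factors and 13 large subunit factors.

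The knockdown targets were checked first. *HHEX* was at 8.6 and 9.06 FPKM in siNC and at 3.25, 3.54 and 1.85 FPKM in siHHEX 1, 2 and 3, a log2 change of -1.37 (adjusted p = 0.0054, limma). *WWTR1* was at 6.8 and 6.72 FPKM in siNC and at 2.64 and 2.58 FPKM in siYAP/TAZ (log2 change -1.10, adjusted p = 0.0156, limma). *YAP1* was at 20.2 and 19.7 FPKM in siNC and at 6.9 and 8.39 FPKM in siYAP/TAZ, a log2 change of -1.28 that did not pass the adjustment (adjusted p = 0.0681, limma). *YAP1* was also low in 2 of the siHHEX libraries, at 5.77, 17.4 and 6.93 FPKM (log2 change -1.07, adjusted p = 0.0429, limma). In siHHEX *TEAD1* fell as well, to 6.99, 10.2 and 5.3 FPKM (log2 change -1.25, adjusted p = 0.00641, limma), and *TEAD2* rose to 6.5, 8.02 and 7.18 FPKM (0.78, adjusted p = 0.00709). Corrected for the GC content and length of the transcripts, as is described further on, the change of *YAP1* was -0.76 (adjusted p = 0.161) and that of *TEAD2* 0.47 (adjusted p = 0.0739) in siHHEX, neither called, and *TEAD1* was still called at -0.91 (adjusted p = 0.0189, limma). *TEAD4*, at -0.11 in siHHEX and not called, was then called at -0.51 (adjusted p = 0.031, limma). With the same correction *YAP1* was called in siYAP/TAZ (-1.40, adjusted p = 0.035, limma), and with median scaling it was not (adjusted p = 0.0557). In siYAP/TAZ *TEAD4* fell to 12.5 and 13.6 FPKM (log2 change -0.63, adjusted p = 0.025, limma). The targets of one knockdown were thus not level in the others. In the library labelled siTEAD1/2/3/4, *TEAD1*, *TEAD2* and *TEAD4* were at 9.02, 2.73 and 5.56 FPKM, below both siNC values of 18.3 and 19 FPKM, 4.1 and 3.47 FPKM, and 20.3 and 21.3 FPKM. *TEAD3* was at 9.08 FPKM there, above its siNC values of 7.36 and 6.99 FPKM, so that the label is not borne out for *TEAD3*, and the library is called by its label throughout. Of 6 epithelial markers, 5 were expressed, led by *KRT8*, while the intestinal marker *VIL1* did not exceed 0.0335 FPKM in any library. The epithelial markers summed to 2678.1 and 2799.9 FPKM in siNC, 2457.1, 2597.6 and 2685.2 in siHHEX, 1442.1 and 1471.3 in siYAP/TAZ and 2178.6 in siTEAD1/2/3/4. The low sums in siYAP/TAZ came from the keratins *KRT8* (log2 change -0.88, adjusted p = 0.00227, limma) and *KRT18* (-1.22, adjusted p = 0.000861), which fell, while *EPCAM*, *CDH1* and *CDX2* were at -0.14, 0.30 and 0.073, not called. In siHHEX *EPCAM* (-0.38, adjusted p = 0.0289, limma) and *KRT18* (-0.29, adjusted p = 0.0348) fell and *CDX2* rose (0.42, adjusted p = 0.042). Of these, *KRT18* was still called in siHHEX with the same correction for GC content and length as above (-0.68, adjusted p = 0.0044, limma), *EPCAM* (-0.26, adjusted p = 0.102) and *CDX2* (0.14, adjusted p = 0.477) were not, and *KRT8* was called at -0.34 (adjusted p = 0.0422). With median scaling *EPCAM* (adjusted p = 0.0509, limma) and *KRT18* (0.0972) were not called. Of 7 markers of leukocytes, fibroblasts and endothelium, *PTPRC*, *COL1A2*, *PDGFRB*, *PECAM1* and *VWF* did not exceed 0.273 FPKM. The 7 summed to 4.72 and 4.73 FPKM in siNC, 4.46, 4.77 and 6.78 in siHHEX, 8.62 and 7.79 in siYAP/TAZ and 6.68 in siTEAD1/2/3/4, most of it *CD68*. The part of either marker list in the results was not tested.

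The ribosome biogenesis genes were mostly lower after each knockdown. Their median log2 change from siNC was -0.34 in siHHEX, against -0.0055 over all tested genes, and -0.38 in siYAP/TAZ, against 0.082 over all tested genes. In the single siTEAD1/2/3/4 library the median was -0.31, against 0.06 over all tested genes. In siHHEX 25 of the 39 were below the siNC mean, in siYAP/TAZ 36, and in siTEAD1/2/3/4 35. Over the 4276 tested genes whose siNC mean lay in the range of these genes, 10.3 to 908 FPKM, the median changes were 0.017, -0.064 and -0.016. The medians of single libraries were -0.33, -0.14 and -0.34 in siHHEX 1, 2 and 3, -0.31 and -0.45 in siYAP/TAZ 1 and 2, and the 2 siNC libraries differed by -0.028 in their median. Added up, the 39 genes held 4184.8 and 4031.5 FPKM in siNC, 3236.7, 3681.6 and 3509.4 in siHHEX, 3264.7 and 3224.9 in siYAP/TAZ and 3340.8 in siTEAD1/2/3/4. No knockdown library reached the lower siNC sum, and the group means were 84.6%, 79% and 81.3% of siNC. These sums were not divided by the FPKM total of each library, and the totals were unequal. They were 348609.7 and 345772.9 in siNC, 374103.3, 365242.1 and 383422.6 in siHHEX, 331662.7 and 336953.6 in siYAP/TAZ and 343785.3 in siTEAD1/2/3/4. The percentages therefore do not rank the knockdowns. In RNA from whole cultures, fewer cells of one kind and less RNA per cell cannot be told apart.

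**Figure D1:**
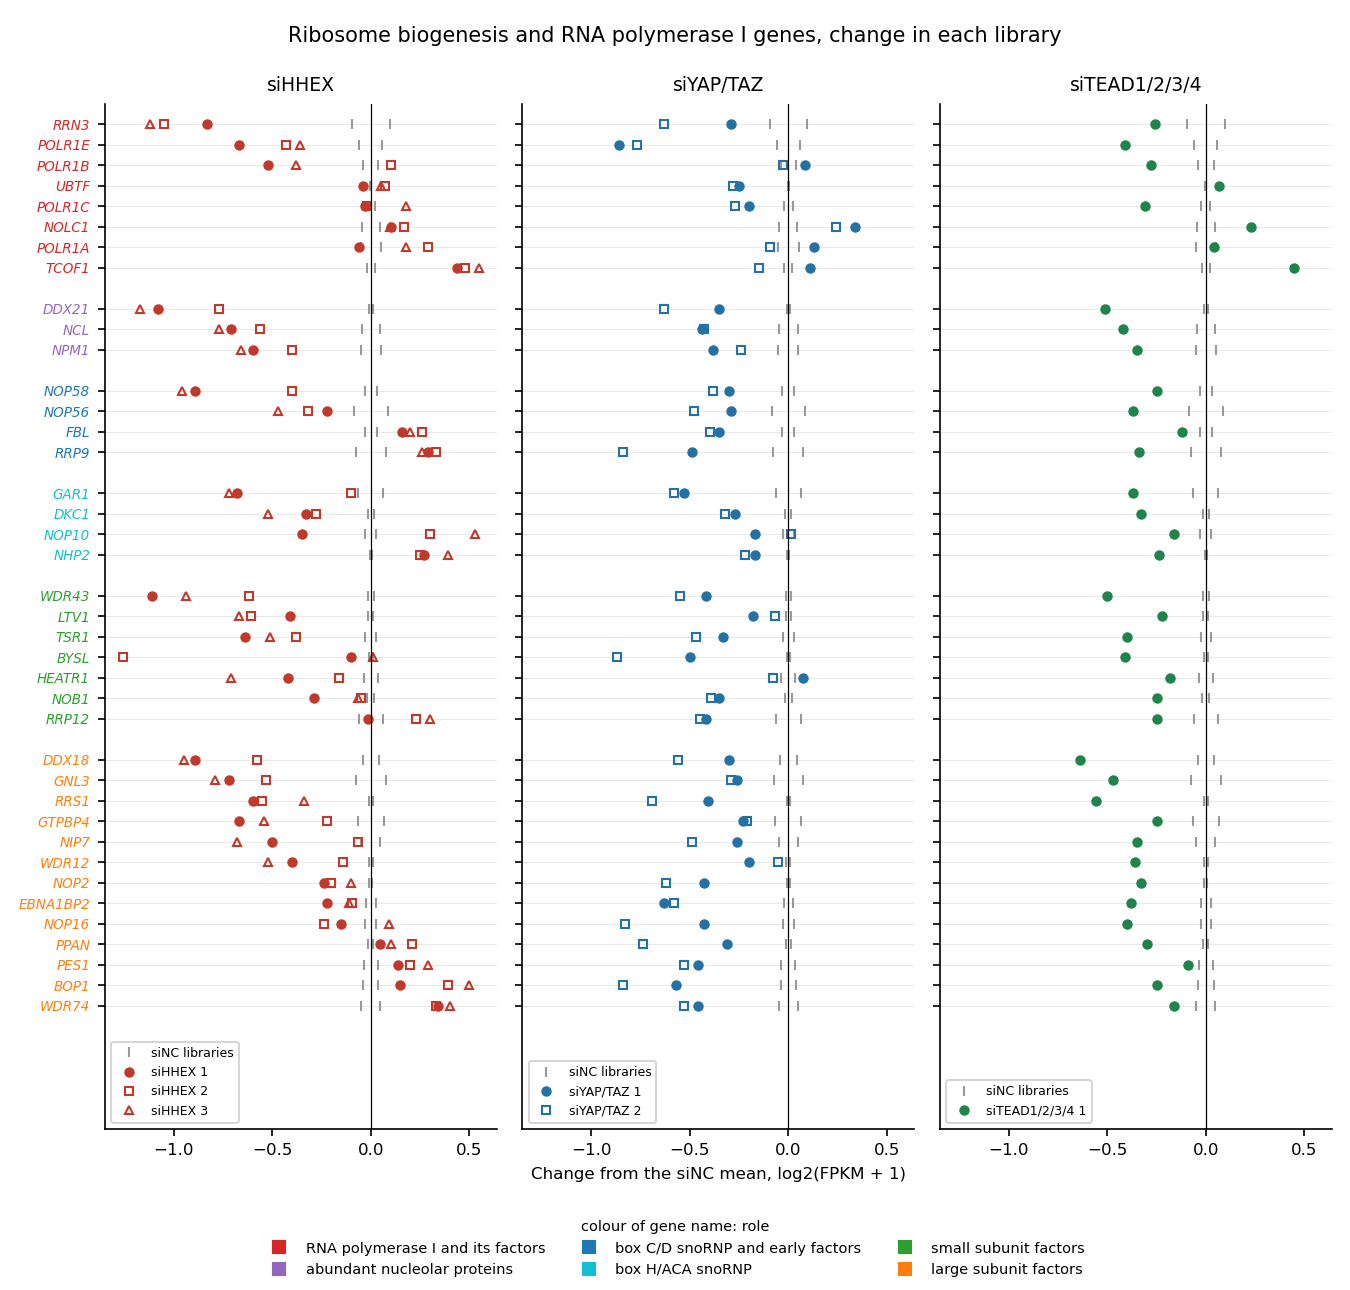
Change of each of the 39 genes from the siNC mean, on the log2(FPKM + 1) scale, in every library, with 1 panel per knockdown. Grey ticks are the 2 siNC libraries, and names are coloured by role. Points in siYAP/TAZ and siTEAD1/2/3/4 lie to the left of 0 for nearly every gene (36 and 35 of 39 by the group mean), whereas in siHHEX they spread to both sides (25 below and 14 above).

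Changes from siNC were tested by limma on log2(FPKM + 1) over all tested genes, and a gene was called at a Benjamini-Hochberg adjusted p under 0.05. Genes with few FPKM have their changes compressed on this scale, and siHHEX and siYAP/TAZ were compared with the same 2 siNC libraries. In siHHEX, 14 of the 39 genes fell (35.9%), where 16.9% of all tested genes were called lower, and 3 rose (7.69%), where 16% were called higher. In siYAP/TAZ, 11 fell (28.2%), where 2.13% of all tested genes were called lower, and 0 rose, where 6.15% were called higher. Of the genes in the siNC range of the 39, 20.2% were called lower and 19.9% higher in siHHEX, and 3.98% and 2.57% in siYAP/TAZ. At an unadjusted p under 0.05 the same limma fit gave 19 lower and 6 higher in siHHEX, against 24.2% and 23% of all tested genes, and 23 lower and 1 higher in siYAP/TAZ, against 7.85% and 19.4%. Without overlap, 22 genes had every siHHEX library below both siNC libraries (33.8% of all tested genes did) and 9 had every one above (33.1%). In siYAP/TAZ, 33 genes had both libraries below both siNC libraries (24.8% of all tested genes) and 1, *NOLC1*, had both above (42.9%). When the median of each library was set equal, siHHEX had 13 lower and 5 higher calls (13.5% and 20.7% of all tested genes) and siYAP/TAZ 13 and 0 (3.23% and 3.12%). The calls rested on both controls: with siNC 1 or siNC 2 left out they were lost in both knockdowns, when the lone siNC library was assumed to vary like the other groups. The changes themselves stayed about as large. The median in siHHEX was -0.31 without siNC 1 and -0.35 without siNC 2, and *POLR1E* in siYAP/TAZ was at -0.76 and -0.88. No share of all tested genes stands beside the counts that follow, which leave out 1 library. The 3 higher calls in siHHEX were 1 without siHHEX 3. The 11 lower calls in siYAP/TAZ were 4 without siHHEX 1, which enters through the shared estimate of the spread. They were lost without siYAP/TAZ 2, where *BOP1* was at -0.57 and *POLR1E* at -0.86.

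Among RNA polymerase I and its factors, *RRN3* fell in siHHEX and *POLR1E* in both siHHEX and siYAP/TAZ. *RRN3*, on chromosome 16 of GRCh38 (chr16:15060033-15094311), encodes the initiation factor that brings the polymerase to the ribosomal DNA promoter. It was at 37.5 and 32.8 FPKM in siNC and at 19.3, 16.4 and 15.6 FPKM in siHHEX, with no overlap, a log2 change of -1.0 (SE 0.148, adjusted p = 0.0047, limma). With GC content and length corrected for, this change was -0.63 and was not called (adjusted p = 0.0504, limma). *RRN3* was at 28.5 and 22.4 FPKM in siYAP/TAZ, also below both siNC libraries, where the change of -0.46 was not called (adjusted p = 0.107, limma), and at 29.2 FPKM in siTEAD1/2/3/4. *RRN3* has closely related pseudogenes on the same chromosome, and reads may be shared with them. *POLR1E* (chr9:37485948-37503697), a subunit of the polymerase that helps it to initiate, was at 41.9 and 38.6 FPKM in siNC, at 25, 29.6 and 31 FPKM in siHHEX, at 21.7 and 23.2 FPKM in siYAP/TAZ, and at 30.1 FPKM with siTEAD1/2/3/4. Every knockdown library was below both controls, and the siYAP/TAZ libraries were the lowest. The log2 change of *POLR1E* was -0.49 in siHHEX (SE 0.128, adjusted p = 0.0212, limma, and 0.0557 without siHHEX 1) and -0.82 in siYAP/TAZ (SE 0.14, adjusted p = 0.0148, limma).

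The large catalytic subunits *POLR1A* and *POLR1B* were not called in either knockdown. *POLR1A*, the largest subunit, was at 9.88 and 10.7 FPKM in siNC, at 9.83, 12.7 and 11.8 FPKM in siHHEX and at 11.3 and 9.56 FPKM in siYAP/TAZ, and its groups overlapped. *POLR1B*, its partner in the active site, was at 21.3 and 22.5 FPKM in siNC, at 15, 23.5 and 16.6 FPKM in siHHEX at 23.3 and 21.5 FPKM in siYAP/TAZ and at 17.9 FPKM in siTEAD1/2/3/4, so that siHHEX 1 and 3 and siTEAD1/2/3/4 were below the controls and siHHEX 2 was not. *POLR1C*, shared with RNA polymerase III, and *UBTF*, which binds along the ribosomal DNA, had log2 changes of 0.043 and 0.028 in siHHEX and of -0.24 and -0.27 in siYAP/TAZ, none called. With GC content and length corrected for, *UBTF* was called lower in siYAP/TAZ (-0.37, adjusted p = 0.0463, limma) and *POLR1C* was not (-0.31, adjusted p = 0.0946). *TCOF1*, the gene of the nucleolar scaffold treacle, rose in siHHEX, from 20.4 and 19.8 FPKM to 27.6, 28.4 and 30 FPKM (log2 change 0.49, SE 0.121, adjusted p = 0.0175, limma), and was not called with GC content and length corrected for (0.25, adjusted p = 0.156). It was at 21.7 and 18 FPKM in siYAP/TAZ, on both sides of siNC, and at 27.7 FPKM in siTEAD1/2/3/4, as high as in siHHEX. *NOLC1*, a nucleolar chaperone of snoRNPs, was above both siNC values of 99.2 and 93.1 FPKM in every knockdown library, at 103, 108 and 103 FPKM in siHHEX, 122 and 114 FPKM in siYAP/TAZ and 113 FPKM in siTEAD1/2/3/4. The changes of *NOLC1*, 0.12 in siHHEX and 0.29 in siYAP/TAZ on the log2 scale, were not called (adjusted p = 0.346 and 0.12, limma).

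The 3 abundant nucleolar proteins were lower in every knockdown library. *DDX21*, an RNA helicase that acts in ribosomal RNA transcription and processing (chr10:68956135-68985068), was at 95.4 and 96.6 FPKM in siNC and at 44.9, 56 and 42.2 FPKM in siHHEX, with a log2 change of -1.0 (SE 0.145, adjusted p = 0.00453, limma). This brought its siHHEX mean to 49.7% of siNC. It was at 75 and 61.6 FPKM in siYAP/TAZ (log2 change -0.49, adjusted p = 0.0854, limma, not called) and at 67 FPKM in siTEAD1/2/3/4. *NCL*, nucleolin (chr2:231453531-231483641), was at 461 and 432 FPKM in siNC, at 271, 302 and 261 FPKM in siHHEX, at 327 and 332 FPKM in siYAP/TAZ and at 334 FPKM in siTEAD1/2/3/4. *NCL* was called in each knockdown, at log2 changes of -0.68 (SE 0.0969, adjusted p = 0.00429, limma) and -0.44 (SE 0.106, adjusted p = 0.039, limma). *NPM1*, nucleophosmin (chr5:171387116-171411810), had the highest siNC mean of the 39, 908 FPKM, from 939 and 877 FPKM. It was at 599, 685 and 575 FPKM in siHHEX (log2 change -0.55, SE 0.101, adjusted p = 0.00779, limma) and at 696 and 769 FPKM in siYAP/TAZ (log2 change -0.31, adjusted p = 0.109, limma). With GC content and length corrected for, all 3 were called lower in siHHEX and in siYAP/TAZ, *NPM1* at -0.34 and -0.39. Of all corrected genes, 3.2% and 6.15% were called lower, and without the correction 16.9% and 2.13% of all tested genes. *NPM1* has many processed pseudogenes, which may share its reads.

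**Figure D2:**
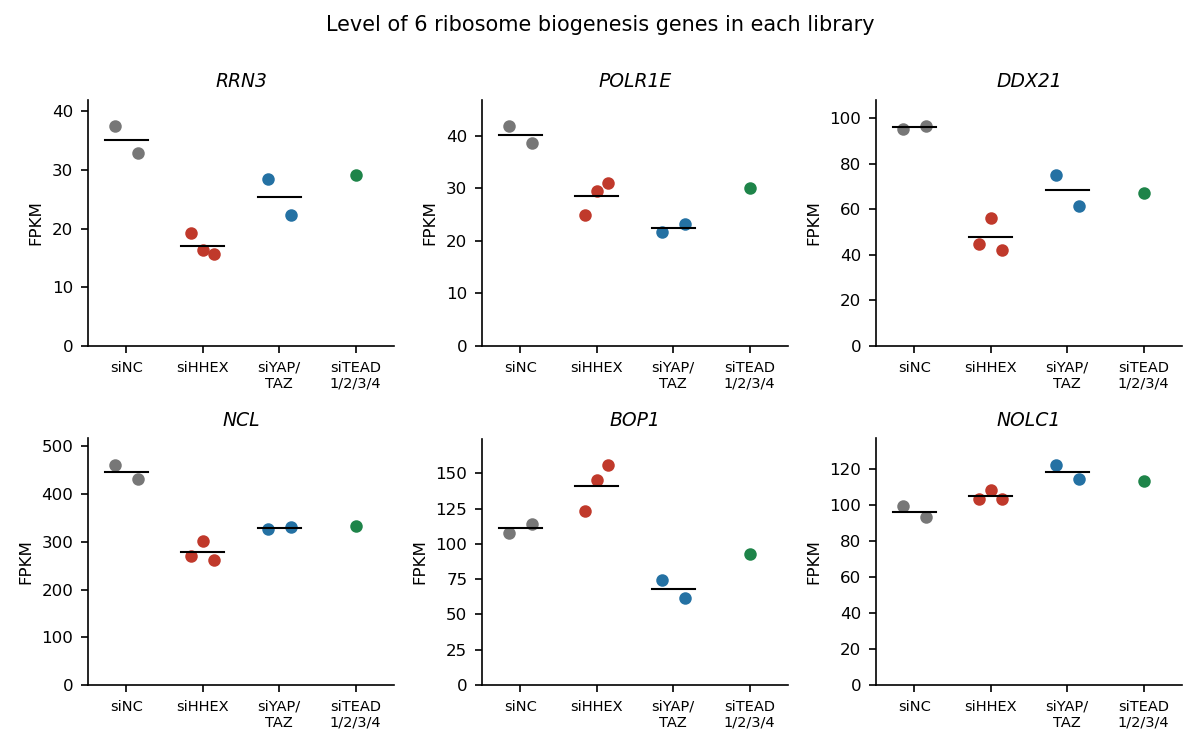
FPKM (linear axis from 0) of *RRN3*, *POLR1E*, *DDX21*, *NCL*, *BOP1* and *NOLC1* in each library. Points are libraries and black lines are group means. *RRN3* and *DDX21* were lowest in siHHEX, *POLR1E* and *BOP1* in siYAP/TAZ, and *NOLC1* was above siNC in every knockdown library.

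Of the 4 genes of box C/D snoRNPs, the methylation guides, 1 fell and 0 rose in siHHEX, against 16.9% and 16% of all tested genes, and 2 fell in siYAP/TAZ, against 2.13%, where all 4 were below siNC. *FBL*, fibrillarin, the methyltransferase itself, was at 281 and 294 FPKM in siNC, at 321, 344 and 330 FPKM in siHHEX and at 225 and 218 FPKM in siYAP/TAZ, so that neither knockdown overlapped the controls and the knockdowns lay on opposite sides of them. Its log2 change was 0.20 in siHHEX (adjusted p = 0.0981, limma, not called) and -0.38 in siYAP/TAZ (SE 0.0967, adjusted p = 0.0462, limma). *NOP56*, a scaffold protein of the same particle, was at 225 and 200 FPKM in siNC, at 182, 170 and 153 FPKM in siHHEX and at 174 and 152 FPKM in siYAP/TAZ, below the controls throughout, and was not called (adjusted p = 0.0515 and 0.0917, limma). *NOP58*, its partner in the particle, fell in siHHEX (log2 change -0.75, SE 0.165, adjusted p = 0.0122, limma), and was not called with the correction described further on (-0.46, adjusted p = 0.0661). *RRP9*, the protein of the U3 snoRNP, was at 65.5 and 72.9 FPKM in siNC, at 84.9, 87.2 and 82.9 FPKM in siHHEX and at 48.9 and 38 FPKM in siYAP/TAZ, with the same opposite placement as *FBL*. It fell in siYAP/TAZ (log2 change -0.67, SE 0.14, adjusted p = 0.0253, limma), and its 0.30 in siHHEX was not called (adjusted p = 0.0995, limma). With GC content and length corrected for all 4 were below siNC in siHHEX too, *FBL* at -0.21 and *RRP9* at -0.13, neither called.

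Of the box H/ACA snoRNP proteins, which guide pseudouridylation, *DKC1*, the pseudouridine synthase, fell in siHHEX (log2 change -0.38, SE 0.115, adjusted p = 0.0347, limma) and *NHP2* rose. *NHP2* was at 170 and 169 FPKM in siNC, at 205, 202 and 222 FPKM in siHHEX (log2 change 0.30, SE 0.0947, adjusted p = 0.0374, limma) and at 151 and 145 FPKM in siYAP/TAZ (log2 change -0.20, adjusted p = 0.249, limma). Both calls were lost without siHHEX 1 (adjusted p = 0.0596 and 0.0653, limma) and without siHHEX 3 (0.063 and 0.0702). Corrected for GC content and length they were lost too, *DKC1* at -0.26 (adjusted p = 0.133, limma) and *NHP2*, with its sign turned, at -0.18 (adjusted p = 0.236). *NOP10* was at 340 and 327 FPKM in siNC and at 261, 410 and 481 FPKM in siHHEX, so that 1 siHHEX library was below the controls and 2 above, and no change was called. *GAR1* had log2 changes of -0.50 in siHHEX and -0.55 in siYAP/TAZ, and was not called (adjusted p = 0.0561 and 0.107, limma).

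Of the 7 small subunit factors, *WDR43*, *TSR1* and *LTV1* fell in siHHEX and 0 were called in siYAP/TAZ, although all 7 were below siNC there, from -0.68 to -0.0026, against 16.9% and 2.13% of all tested genes called lower. With GC content and length corrected for, 1 was called in siHHEX, *WDR43* (3.2% of corrected genes), and 4 in siYAP/TAZ, *WDR43*, *RRP12*, *TSR1* and *NOB1* (6.15%), and median scaling gave 3 and 2. *WDR43*, a subunit of the complex that binds the start of the nascent precursor (chr2:28894667-28948219), was at 58.7 and 57.6 FPKM in siNC, at 26.5, 37.4 and 29.8 FPKM in siHHEX (log2 change -0.89, SE 0.147, adjusted p = 0.00638, limma), at 43.2 and 39.5 FPKM in siYAP/TAZ and at 40.7 FPKM in siTEAD1/2/3/4. All 6 knockdown libraries were below the controls, and its change of -0.48 in siYAP/TAZ was not called (adjusted p = 0.0916, limma). *LTV1*, which helps to release the late small subunit, was at 26.7 and 26.3 FPKM in siNC, at 19.7, 17 and 16.3 FPKM in siHHEX (log2 change -0.56, SE 0.123, adjusted p = 0.0123, limma) and at 23.2 and 25.2 FPKM in siYAP/TAZ. *TSR1*, a late assembly factor, had a log2 change of -0.51 in siHHEX (SE 0.119, adjusted p = 0.0147, limma). *BYSL*, another factor of the late precursor, was at 46.9 and 47.5 FPKM in siNC, at 43.8, 19.2 and 47.5 FPKM in siHHEX and at 33.2 and 25.4 FPKM in siYAP/TAZ. It was low in siHHEX 2 alone among the siHHEX libraries, and with this spread its log2 changes of -0.45 and -0.68 were not called (adjusted p = 0.288 and 0.245, limma). *NOB1*, the nuclease of the final cut of the small subunit RNA, was at 114 and 111 FPKM in siNC, at 91.9, 109 and 107 FPKM in siHHEX and at 88.1 and 85.4 FPKM in siYAP/TAZ, below the controls in every library and not called. *HEATR1*, a scaffold of the early precursor, and *RRP12* had log2 changes of -0.43 and 0.17 in siHHEX and -0.0026 and -0.44 in siYAP/TAZ, none called.

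Of the 13 large subunit factors, 7 fell in siYAP/TAZ (53.8%, against 2.13% of all tested genes), where all 13 were below siNC, and 9 did with GC content and length corrected for (69.2%, against 6.15%). *BOP1* and *PES1*, which with *WDR12* form the PeBoW complex needed for maturation of the large subunit RNA, fell in siYAP/TAZ, while *WDR12* was at -0.12 (adjusted p = 0.635, limma). *BOP1* (chr8:144262045-144291438) was at 108 and 114 FPKM in siNC, at 74.3 and 61.4 FPKM in siYAP/TAZ (log2 change -0.70, SE 0.147, adjusted p = 0.0245, limma), at 92.8 FPKM in siTEAD1/2/3/4, and at 123, 145 and 156 FPKM in siHHEX (log2 change 0.35, adjusted p = 0.0722, limma, not called). *EBNA1BP2*, an early nucleolar assembly factor, was at 126 and 122 FPKM in siNC, at 106, 116 and 115 FPKM in siHHEX and at 79.8 and 82.6 FPKM in siYAP/TAZ. Every knockdown library was below the controls, and the fall was called in siYAP/TAZ (log2 change -0.60, SE 0.108, adjusted p = 0.0162, limma) and not in siHHEX (-0.14, adjusted p = 0.279, limma). *WDR74*, which acts in nucleolar release of the large subunit precursor, rose in siHHEX and fell in siYAP/TAZ. It was at 27.8 and 29.8 FPKM in siNC, at 36.6, 36.3 and 38.2 FPKM in siHHEX (log2 change 0.35, SE 0.108, adjusted p = 0.0349, limma, 0.0665 without siHHEX 1 and 0.0585 without siHHEX 3) and at 20.6 and 19.7 FPKM in siYAP/TAZ (log2 change -0.49, SE 0.118, adjusted p = 0.038, limma). Corrected for GC content and length, *WDR74* was at -0.077 in siHHEX, with its sign turned and not called, and at -0.59 in siYAP/TAZ, still called. The other calls in siYAP/TAZ were the falls of *NOP2*, an RNA methyltransferase, *NOP16* and *RRS1*, from -0.63 to -0.53. In siHHEX, *DDX18*, an RNA helicase, *GNL3*, the GTPase nucleostemin, *RRS1* and *GTPBP4*, another GTPase, fell by 0.81, 0.68, 0.50 and 0.48 on the log2 scale. Corrected for GC content and length, *DDX18* (-0.39, adjusted p = 0.0791, limma) and *GTPBP4* (-0.22, adjusted p = 0.237) were not called, and *GNL3* and *RRS1* still were. The calls of *RRS1* (adjusted p = 0.0596, limma) and *GTPBP4* (0.0878) were lost without siHHEX 1, and that of *GTPBP4* also without siHHEX 3 (0.0702). *NIP7*, a factor of large subunit RNA maturation, was at -0.42 in siHHEX and -0.38 in siYAP/TAZ, not called. *PPAN* overlaps a read-through transcript with its neighbour, and its value is uncertain.

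In siHHEX, the direction of a gene went with the GC content of its transcript. The 39 transcripts had a median GC content of 49%, from 39.5% in *DDX18* to 65.6% in *BOP1*, close to the 49.1% of all tested genes with an annotated transcript. Of the 20 genes under the tested median, 12 were called lower and 0 higher in siHHEX, with a median change of -0.51. Of the 19 at or over it, 2 were called lower and 3 higher, with a median of 0.12. All tested genes were divided likewise, with 1690 lower and 114 higher of 5307 under the median and 109 lower and 1589 higher of 5307 at or over it. Across the 39 genes, Spearman's rho of the change with GC content was 0.828, 0.65 and 0.86 in siHHEX 1, 2 and 3, and across the 10614 tested genes with a value it was 0.679, 0.599 and 0.755. In siYAP/TAZ 1 and 2 it was -0.314 and -0.304 across the 39 genes and 0.0602 and -0.0519 across the tested genes. The siTEAD1/2/3/4 library had a weaker relation of the same sign as siHHEX, 0.392 across the 39 genes and 0.298 across the tested genes. Between the 2 siNC libraries, siNC 2 minus siNC 1, it was 0.499 and 0.212. The genes of a library share its preparation and depth, so that these values are descriptions of the libraries, and whether the relation came from the knockdown or from the libraries was not tested.

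**Figure D3:**
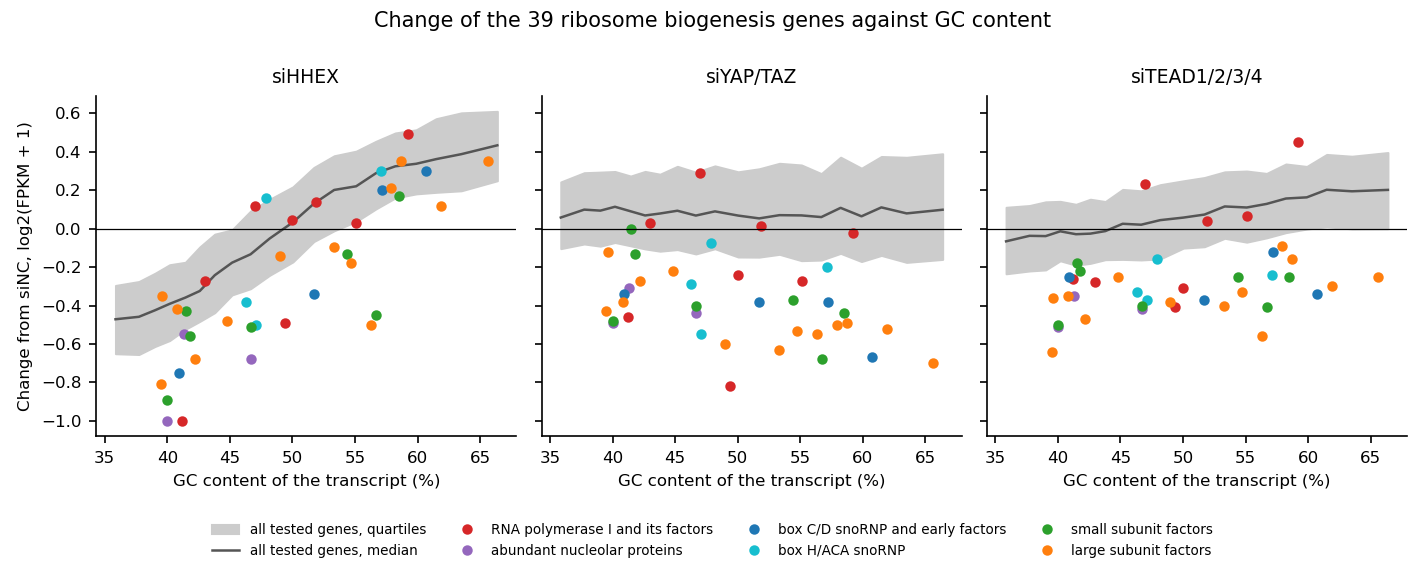
Change from siNC, log2(FPKM + 1), against the GC content of the transcript (%) for the 39 genes (points, coloured by role), with the median (line) and quartiles (band) of all tested genes in 20 bins of equal size. In siHHEX both the genes and the band climb from left to right, and in siYAP/TAZ the band is flat and most of the genes lie under it.

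After each library was corrected for a smooth trend on GC content and transcript length, most of the genes were still lower. In siHHEX, 34 of 39 were below siNC and the median was -0.25, against 0.00061 over the 10614 corrected genes. Of the 39, 9 were called lower (23.1%, against 3.2% of corrected genes) and 0 higher (3.56%). The 9 were *NOP56*, *NCL*, *NPM1*, *NOP2*, *RRS1*, *WDR43*, *POLR1E*, *DDX21* and *GNL3*. Of the genes that had fallen, *RRN3* was at -0.63 (adjusted p = 0.0504, limma), not called, nor were *NOP58*, *DKC1*, *DDX18*, *TSR1*, *LTV1* and *GTPBP4*. *NHP2*, *WDR74* and *TCOF1*, the genes that had risen, were at -0.18, -0.077 and 0.25, none called. In siYAP/TAZ, 38 of 39 were below siNC and the median was -0.47, against -0.02 over the corrected genes, with 20 called lower (51.3%, against 6.15%) and 0 higher (5.33%). The corrected genes in the siNC range of the 39 had medians of -0.043 in siHHEX, with 4.81% called lower, and -0.16 in siYAP/TAZ, with 11.6% called lower. *DDX21* was at -0.58 in siHHEX and -0.59 in siYAP/TAZ after the correction, and *NCL* at -0.52 in each. *POLR1E* was at -0.55 and -0.87 and *RRS1* at -0.81 and -0.62. With the replicate number as a block in addition, 1 gene was called lower in siHHEX and 17 in siYAP/TAZ. No share of all corrected genes stands beside these counts, so they are not set against a background.

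siHHEX was also compared with siYAP/TAZ directly, which does not involve the siNC means. Of the 39 genes, 12 were higher in siHHEX (30.8%, against 13.5% of all tested genes) and 4 were lower (10.3%, against 25.9%). Of the genes in the siNC range of the 39, 25.2% were higher and 17.8% lower. Of the tested genes as a whole, 23% had every siHHEX library above both siYAP/TAZ libraries and 37.8% had every one below. Among the 39 these were 16 and 11. *BOP1* (difference 1.05, 95% interval 0.75 to 1.35, adjusted p = 0.00394, limma), *RRP9* (0.96, 0.67 to 1.25, adjusted p = 0.00406) and *WDR74* (0.85, 0.60 to 1.09, adjusted p = 0.00394) were the highest, followed by *PES1*, *PPAN*, *RRP12*, *FBL*, *NOP16*, *TCOF1*, *NHP2*, *EBNA1BP2* and *NOP2*. *RRN3* (-0.54, -0.87 to -0.21, adjusted p = 0.0203, limma), *DDX21* (-0.51, -0.84 to -0.19, adjusted p = 0.0223), *LTV1* and *GNL3* were lower in siHHEX. With the median of each library set equal, 16 were higher (41%) and 0 lower, against 23.5% and 13% of all tested genes, and against 38.1% and 8.28% of the genes in the siNC range of the 39, so that the share of higher calls was then close to that of genes of like level. The 12 higher calls were 6 without siYAP/TAZ 2. The 4 lower calls were 2 without siNC 1, siNC 2 or siHHEX 1, 13 without siHHEX 2, 0 without siYAP/TAZ 1 and 1 without siYAP/TAZ 2. No share of all tested genes in the same fit stands beside these counts with 1 library left out, so they are not set against a background. With GC content and length corrected for, 8 genes were higher in siHHEX (20.5%, against 5.53% of corrected genes and 11% of those in the siNC range of the 39) and 0 were lower (3.35% and 2.04%). *BOP1* (0.76), *RRP9* (0.63), *WDR74* (0.51), *RRP12* (0.48), *PES1* (0.47), *EBNA1BP2* (0.43), *TCOF1* (0.39) and *WDR12* (0.36) were then called, and *DDX21*, at 0.01, and *RRN3*, at -0.085, were not. The difference of *WDR12* had turned sign, from -0.23 (adjusted p = 0.2, limma). Its change from siNC in siHHEX turned too, from -0.35 to 0.094, neither called.

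**Figure D4:**
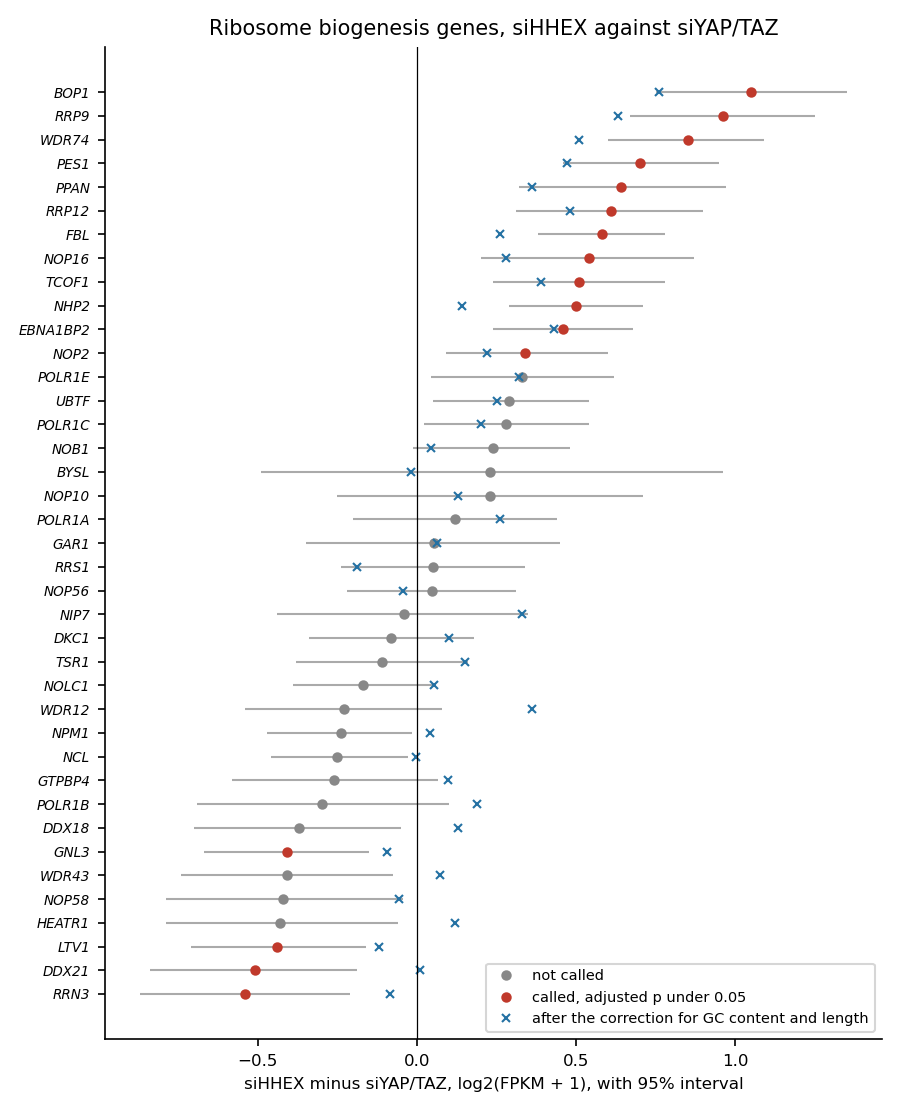
Difference between siHHEX and siYAP/TAZ for each of the 39 genes on the log2(FPKM + 1) scale, with the 95% interval (lines). Red points passed an adjusted p under 0.05, and crosses are the differences once GC content and length were corrected for. This moved the lowest genes toward 0, *RRN3* from -0.54 to -0.085, and left *BOP1* at 0.76.

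In the library labelled siTEAD1/2/3/4, which had no replicate and in which *TEAD3* was not lower, 35 of the 39 genes were below both siNC libraries (89.7%, against 35.1% of all tested genes). Most of the differences were small. *DDX18*, at 34.9 FPKM against 56.6 and 53.3 FPKM in siNC (log2 change -0.64), was the 1 gene lower by more than 1.5-fold (2.56%, against 2.18% of tested genes), and 0 were higher by that much (4.15%). *RRS1* (-0.56), *DDX21* (-0.51) and *WDR43* (-0.50) came next. The 4 genes not below siNC were all of RNA polymerase I and its factors, *TCOF1*, *NOLC1*, *UBTF* and *POLR1A*, at 0.45, 0.23, 0.066 and 0.04. The other 4 genes of this role were below the siNC mean, as were 15 of the 16 other RNA polymerase I genes described further on.

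Some of the genes had features that were not used to choose them. Of the 39, 9 had an annotated snoRNA gene inside the gene (23.1%), as had 199 of 10596 tested coding genes (1.88%), and *GNL3* held 6, the most. In vertebrates most snoRNAs are cut from introns of such host genes. The 9 host genes, *NOP56*, *NOP58*, *NCL*, *DKC1*, *WDR43*, *POLR1C*, *GNL3*, *PPAN* and *TSR1*, were all below siNC in siYAP/TAZ, where 1 of them was called, and 7 of them in siHHEX, where 6 were called lower, at medians of -0.38 and -0.51. The 30 others had medians of -0.40 and -0.16, with 10 and 8 called lower. With GC content and length corrected for, 4 of the 9 were called lower in each knockdown, and 16 of the 30 others in siYAP/TAZ and 5 in siHHEX. All tested genes were called lower at 16.9% in siHHEX and 2.13% in siYAP/TAZ, and at 3.2% and 6.15% after the correction. The snoRNAs themselves were not analysed here.

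A RefSeq promoter window, from 250 bases before to 50 bases after a transcription start on GRCh38.p14, was found for 31 of the 39 genes. The E-box CACGTG, which reads the same on both strands, occurred in a window of 12 of these 31 genes (38.7%), against 1109 of 8517 tested genes with a window (13%), and in 7.26% of all 35116 windows of the table. Of its 14 occurrences, 9 began after the start and 5 before it. For 8 of the 12 genes, chosen after their values were seen, the stretch of the window around the E-box, 27 to 30 bases, is printed to show where the E-box, in capitals, lies, read 5′ to 3′ on the strand of the gene.
DDX21: ggccgggtgtccCACGTGgtccccggcgac
WDR43: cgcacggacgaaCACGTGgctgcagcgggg
GNL3: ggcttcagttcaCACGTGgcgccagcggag
LTV1: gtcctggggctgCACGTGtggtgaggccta
RRP9: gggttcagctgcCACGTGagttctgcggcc
FBL: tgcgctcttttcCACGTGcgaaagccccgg
PES1: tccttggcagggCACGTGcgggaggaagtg
NOP2: aggtccggattgCACGTGgagggccgc
The first 4 are of genes that fell in siHHEX and the last 4 of genes that fell in siYAP/TAZ. They lie at chr10:68956604-68956633 for *DDX21*, chr2:28894658-28894687 for *WDR43*, chr3:52686026-52686055 for *GNL3* and chr6:143843354-143843383 for *LTV1*, all on the plus strand, and at chr3:51941892-51941921 for *RRP9*, chr19:39846356-39846385 for *FBL*, chr22:30591880-30591909 for *PES1* and chr12:6568242-6568268 for *NOP2*, all on the minus strand. The motif began 31 bases before the start in *DDX21* and 5 bases before it in *RRP9*, and after the start in the others. These starts are those of the RefSeq windows, and that of *DDX21* lies inside the gene coordinates given further above. A match shows only that the letters are there, and binding was not measured in these files. The 12 genes with an E-box had median log2 changes of -0.32 in siHHEX and -0.49 in siYAP/TAZ, and the 19 without one in their window -0.34 and -0.31. *MYC* was at 89.1 and 91 FPKM in siNC, at 73.5, 94.3 and 78.2 FPKM in siHHEX, at 67.6 and 54.4 FPKM in siYAP/TAZ and at 48.6 FPKM in siTEAD1/2/3/4. It was thus lowest in siTEAD1/2/3/4 and overlapped the controls in siHHEX, with log2 changes of -0.14 in siHHEX (adjusted p = 0.442, limma) and -0.56 in siYAP/TAZ (adjusted p = 0.0545, limma), neither called. In siYAP/TAZ *MYC* was called lower with GC content and length corrected for (-0.64, adjusted p = 0.0235, limma) and with median scaling (-0.67, adjusted p = 0.0363).

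Further genes of ribosome assembly were examined in lists set by role. Their counts stand against the shares of all tested genes given above, 16.9% lower and 16% higher in siHHEX and 2.13% and 6.15% in siYAP/TAZ, and 3.2% and 3.56%, and 6.15% and 5.33%, once corrected for GC content and length. Of 47 other small subunit processome genes, 15 fell and 4 rose in siHHEX and 5 fell and 0 rose in siYAP/TAZ, at medians of -0.31 and -0.26. Corrected, 1 fell in siHHEX (2.13%) and 15 in siYAP/TAZ (31.9%), at medians of -0.15 and -0.36. In siHHEX *UTP15* (-0.86) and *WDR75* (-0.74) were the lowest and *DDX49* (0.66) and *DHX37* (0.49) the highest, all called. In siYAP/TAZ *PNO1* (-0.89) and *NOC4L* (-0.68) fell, and the highest, *BMS1* (0.25) and *KRR1* (0.21), were not called. Of 48 other large subunit assembly genes, 14 fell and 2 rose in siHHEX and 3 fell and 0 rose in siYAP/TAZ, at medians of -0.23 and -0.20. Corrected, 4 fell in siHHEX (8.33%) and 12 in siYAP/TAZ (25%), at medians of -0.10 and -0.27. *BRIX1*, an early assembly factor, was at 87.4 and 80.7 FPKM in siNC and at 44.8, 42.6 and 43.1 FPKM in siHHEX (-0.93, adjusted p = 0.00346, limma), and fell in siYAP/TAZ too (-0.51, adjusted p = 0.0307, limma). *MAK16* (-0.83) fell and *NOP53* (0.63) and *SENP3* (0.41) rose in siHHEX, and *MRTO4* (-0.78) and *RRP1* (-0.66) fell in siYAP/TAZ, where *EFL1* (0.39) and *NOP53* (0.31) were the highest and were not called.

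Of 16 other RNA polymerase I genes, which include subunits shared between polymerases and *ZNHIT6*, an assembly factor of box C/D snoRNPs and not of the polymerase, 5 fell and 3 rose in siHHEX and 0 were called in siYAP/TAZ, at medians of -0.081 and -0.17. Below siNC were 9 of the 16 in siHHEX, 13 in siYAP/TAZ and 15 in siTEAD1/2/3/4, the last at a median of -0.07. Corrected, 0 were called in siHHEX and 3 fell in siYAP/TAZ (18.8%), at medians of -0.074 and -0.27. *POLR1F* (-0.83), *TAF1D* (-0.59) and *ZNHIT6* (-0.58) were among those that fell and *POLR2F* (0.59) and *POLR2L* (0.44) among those that rose in siHHEX. The extremes in siYAP/TAZ, *POLR1G* (-0.54), *POLR1F* (-0.36), *TAF1D* (0.34) and *TAF1C* (0.083), were not called. Of 22 RNA polymerase III genes, 5 fell and 1 rose in siHHEX and 1 fell in siYAP/TAZ, at medians of 0.063 and -0.067. Corrected, 0 fell and 1 rose in siHHEX and 2 fell in siYAP/TAZ, at medians of 0.078 and -0.19. *MAF1*, the repressor of RNA polymerase III, was at 46.1 and 49.6 FPKM in siNC and at 92.3, 85.6 and 94.8 FPKM in siHHEX (0.91, adjusted p = 0.00384, limma), the largest rise in these lists among those called, after *MXD4*. *GTF3A* (0.40) was not called. *POLR3G* (-1.01) fell and *POLR3F* (-0.71) was not called in siHHEX, and in siYAP/TAZ *POLR3K* (-0.78) fell while *GTF3C2* (-0.56), *POLR3GL* (0.72) and *GTF3C3* (0.47) were not called. Of 14 RNA exosome genes, 2 fell and 2 rose in siHHEX and 0 were called in siYAP/TAZ, at medians of -0.15 and -0.12, and 1 fell in each once corrected. In siHHEX *DIS3* (-0.71) fell, *C1D* (-0.74) was not called, and *EXOSC5* (0.55) and *EXOSC4* (0.45) rose. In siYAP/TAZ *C1D* (-0.54), *EXOSC4* (-0.53), *EXOSC8* (0.31) and *EXOSC1* (0.12) were the extremes.

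Of 12 MYC and MAX network genes, 11 were tested, and 1 fell and 3 rose in siHHEX and 0 fell and 1 rose in siYAP/TAZ, at medians of 0.024 and 0.19. Corrected, 0 were called in siHHEX, and *MYC* fell and *MXD4* rose in siYAP/TAZ, at medians of 0.059 and 0.0047. *MXD4*, a partner of MAX that opposes MYC, was at 1.25 and 1.11 FPKM in siNC, at 2.92, 2.92 and 4.34 FPKM in siHHEX, at 3.61 and 6.39 FPKM in siYAP/TAZ and at 3.11 FPKM in siTEAD1/2/3/4. It rose by 1.0 in siHHEX (adjusted p = 0.0117, limma) and by 1.42 in siYAP/TAZ (adjusted p = 0.0128, limma). *MXD3*, of the same family, rose in siHHEX (0.74, adjusted p = 0.0201, limma) and was at 0.68 in siYAP/TAZ (adjusted p = 0.0753, limma). *MGA* (-0.47) fell and *MXI1* (-0.17) was not called in siHHEX, and *MLX* was at -0.49 in siYAP/TAZ, not called. Of the genes of these further lists named as called in siHHEX, *BRIX1* (-0.61, adjusted p = 0.0247, limma) and *MAF1* (0.48, adjusted p = 0.0338) were still called after the correction, and the others were not. *EXOSC4* and *POLR2L*, which had risen, turned sign, to -0.12 and -0.064.

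**Figure D5:**
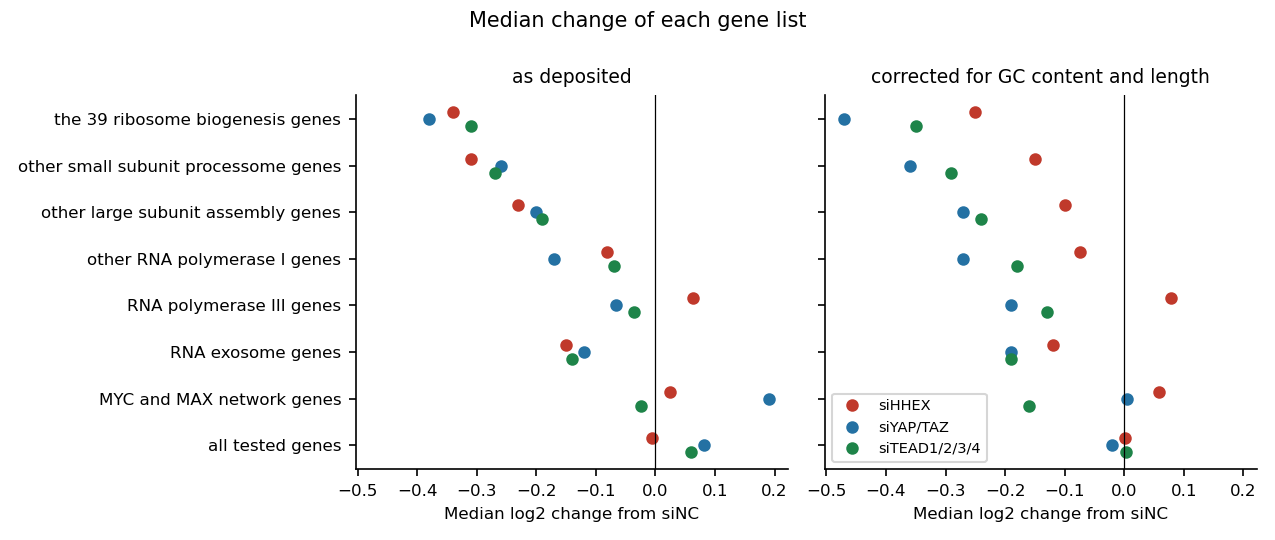
Median log2 change from siNC of each gene list in siHHEX, siYAP/TAZ and siTEAD1/2/3/4, as deposited (left) and corrected for GC content and length (right). Among the lists of ribosome assembly, RNA polymerase, RNA exosome and MYC and MAX network genes, the 39 genes have the lowest medians. These are -0.34, -0.38 and -0.31 as deposited and -0.25, -0.47 and -0.35 after the correction. The knockdown targets and the cell type markers are not part of this ranking. The 39 genes and the other lists were chosen with earlier results of these data known, so the ranking is a description only.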

How the data were processed

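Total RNA of HCT-116 cells was sequenced, and the FPKM values that the authors deposited, 1 per gene and library, were used. Per the labels, the submitters' processing notes name Trimmomatic 0.36, HISAT2 2.0.5, Cufflinks 2.2.1 and HTSeq 0.9.1. The build and annotation behind the FPKM are not given in the sources used here. FPKM are not counts, so the depth is unknown and no count test was run. Groups came from the library titles. Genes that reached 1 FPKM in 2 or more of 8 libraries (10677 of 20030) were fitted with limma 3.58.1 (R 4.3.3, variance trend) on log2(FPKM + 1), all libraries in 1 fit, with Benjamini-Hochberg adjustment, and the code was tested on simulated data. GC content and length of the canonical transcript (GENCODE 44, GRCh38, 10614 genes, 99.4%) were fitted per library by splines with 4 degrees of freedom for the correction. Promoter windows were from RefSeq. The 39 genes and all lists were chosen with earlier results of these data known. Genes given in full were the knockdown targets, the 3 lowest and 3 highest of the 39 in siHHEX, in siYAP/TAZ and in siHHEX against siYAP/TAZ, 2 or more of each role with the highest siNC mean, the 2 lowest and 2 highest of each other list in siHHEX and in siYAP/TAZ, and *MYC*. The rest of the 39 were accounted for by role. Further values were chosen after they were seen. The tables list *POLR1F*, *POLR1G*, *POLR1H* and *UTP25* under older names. Alternatives were another pseudocount and filter, median scaling, fewer groups in the fit, the replicate number as a block, the study's criterion (over 2-fold and an unadjusted p under 0.05) and leaving out each library.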

Additional observations from a re-analysis of the deposited data

How the results depend on the processing

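With GC content and length corrected for, siHHEX had 9 lower and 0 higher calls among the 39 genes, siYAP/TAZ 20 lower, and siHHEX against siYAP/TAZ 0 lower. With the replicate block added to this correction, these were 1, 0, 17 and 0, with 1 higher call in siHHEX against siYAP/TAZ. Counts with the block, by the study's criterion or at 2-fold are given without the share of all genes in the same fit. So are counts without a filter, with only the groups compared and with 1 library left out. None of these counts is set against a background. By the study's criterion, siHHEX had 1 lower and 0 higher, siYAP/TAZ 0 lower, and siHHEX against siYAP/TAZ 0 lower and 1 higher. Median scaling gave 5 higher in siHHEX, 0 lower in siHHEX against siYAP/TAZ and 2 lower in siTEAD1/2/3/4, with medians of -0.49 in siYAP/TAZ, 0.23 in siHHEX against siYAP/TAZ and -0.37 in siTEAD1/2/3/4. The corrected median was -0.35 in siTEAD1/2/3/4 and, with the block, 0.16 in siHHEX against siYAP/TAZ. Without a filter, siYAP/TAZ had 4 lower. With only the groups compared in the fit, siYAP/TAZ had 19 lower and siHHEX against siYAP/TAZ 2 lower. At 2-fold, siTEAD1/2/3/4 had 0 lower. Leaving out 1 library gave 0 to 19 lower and 0 to 3 higher in siHHEX, 0 to 16 lower in siYAP/TAZ, 0 to 13 lower and 6 to 13 higher in siHHEX against siYAP/TAZ, and a median of -0.33 to -0.30 in siTEAD1/2/3/4. The lone siNC or siYAP/TAZ library that remained was assumed to vary like the other groups. The causes were not tested.

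No pairing of the samples by replicate number was seen: deviations of libraries with the same number correlated at -0.0704 to 0.0215. With so few libraries per group, these values cannot exclude a shared preparation. With the replicate block alone, siHHEX had 12 lower and 1 higher, siYAP/TAZ 9 lower, and siHHEX against siYAP/TAZ 1 lower and 10 higher, and *NOP10* in siHHEX was at -0.029.

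Of 63 results for single genes, 16 turned sign with the GC and length correction, 17 with the block in addition, and 3 with median scaling, while 0 did with a pseudocount of 0.1, either filter or only the groups compared. In siHHEX the corrected changes, without and with the block, were -0.21 and -0.15 for *FBL*, -0.18 and -0.16 for *NHP2*, -0.091 and -0.25 for *NOP10*, -0.13 and -0.048 for *RRP9*, -0.047 and -0.054 for *BOP1*, -0.077 and -0.04 for *WDR74*, and 0.078 and 0.081 for *POLR1B*. In siYAP/TAZ they were -0.17 and -0.17 for *POLR1A* and -0.11 and -0.11 for *POLR1B*, which were at -0.089 and -0.075 with median scaling. In siHHEX against siYAP/TAZ they were 0.042 and 0.054 for *NPM1*, 0.071 and 0.034 for *WDR43*, 0.054 and 0.047 for *NOLC1* (0.0068 with median scaling), 0.19 and 0.19 for *POLR1B*, 0.01 and 0.025 for *DDX21*, and -0.019 and -0.20 for *BYSL*. *NOP56* was at -0.044 without the block, and *NCL* and *NOP10* at 0.019 and -0.029 with it. Leaving out 1 library turned the sign of 6 of these results, which then ranged from -0.029 to 0.41 for *NOP10* in siHHEX, from -0.095 to 0.13 for *POLR1A*, -0.025 to 0.086 for *POLR1B*, -0.17 to 0.015 for *NOP10* and -0.15 to 0.11 for *TCOF1* in siYAP/TAZ, and from -0.051 to 0.14 for *NOP56* in siHHEX against siYAP/TAZ. Depth is unknown, so counting error could not be set apart from the spread between libraries.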
